A study of Mus musculus with 16 samples.

Results

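Schwann cells are the glia of peripheral nerves. They follow axons into the walls of organs and vessels, and those that take up a large axon wrap it in myelin, a stack of membrane held together by a small set of dedicated proteins. The aorta carries autonomic nerve fibers in its outer layer, so its RNA holds a small share from these cells. The genes described here are 6 genes of Schwann cells and myelin, chosen by gene symbol from the 54532 genes counted in mouse aorta. Sox10 encodes the transcription factor that specifies and maintains the lineage. Mbp, Pmp22 and Pmp2 encode myelin basic protein, peripheral myelin protein 22 and myelin protein P2, which are built into compact myelin. Prx encodes periaxin, which links the Schwann cell membrane to its cytoskeleton, and S100b encodes a calcium-binding protein widely used as a glial marker. Of the 6 genes, 5 were measured and Pmp2 had 0 counts in all 16 libraries.

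The study asked how dietary phosphate and protein act on arterial calcification in mice with reduced kidney mass. Aortas of male C57BL/6J mice were sequenced after poly-A selection, as 1 library per mouse and 4 mice per group. The mice were 12 weeks old at the first operation. The 5/6 Nx mice lost kidney tissue in 2 steps 1 week apart, which is a surgical model of chronic kidney disease (CKD), and after 2 weeks of recovery received a diet with 2% phosphorus and 2.5% protein (5/6 Nx-HPi-Lp), 2% phosphorus and 18% protein (5/6 Nx-HPi-Hp) or 0.3% phosphorus and 2.5% protein (5/6 Nx-LPi-Lp). Sham mice kept their kidneys and received the first of these diets, so the first 5/6 Nx group differed from Sham in surgery alone, and the other 5/6 Nx groups differed from Sham in surgery and diet together. Below, the 5/6 Nx groups are named by diet, as HPi-Lp, HPi-Hp and LPi-Lp mice. The labels give 30 days of diet and the study's methods give 4 weeks. The labels name no allele or transgene.

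The libraries held 13659525 to 57276915 counts. Mitochondrially encoded genes took 4.18% to 6.34% of the counts in the Sham libraries and 9.50% to 29.0% in the 5/6 Nx libraries. The summed level of 7 smooth muscle markers, which define most of the vessel wall, was 20861 to 24871 counts scaled to library size (CPM) in the Sham libraries, 2254 to 5114 CPM in the HPi-Lp libraries and 6817 to 22048 CPM in the other 5/6 Nx libraries. One library, HPi-Lp replicate 1, stood above its group for most genes described below. Group means, tests and correlations of the members are therefore also given without it where it moved them.

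Pmp2 is annotated on chromosome 3 (10179851 to 10183929, minus strand, mm10) with 4 exons. Exons 2 to 4 overlap exons of a second protein-coding gene on the same strand, Gm37389, and the overlap takes 1224 of the 1408 exonic bases of Pmp2 (86.9%). Gm37389 also had 0 counts in all 16 libraries. A counter that discards reads matching more than 1 gene would give both genes no reads from the shared exons. The counting options are not given in the sources used here, so the 0 of Pmp2 cannot be read as a level. A count of 0 allows up to 3 counts, or 0.0549 to 0.252 CPM depending on the library, for reads that could have been assigned, such as those inside the 183 bases of exon 1, which Gm37389 does not share. Exon 2 is shown because it is identical in the 2 genes, so that a read inside it matches both. It is a coding exon of 173 bases, chr3:10182382-10182554 on the minus strand of mm10, printed in lower case with no part marked.
Pmp2 exon 2: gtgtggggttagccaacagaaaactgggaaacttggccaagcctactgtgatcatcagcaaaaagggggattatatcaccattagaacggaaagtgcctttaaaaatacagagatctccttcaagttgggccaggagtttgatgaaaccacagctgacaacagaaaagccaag

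**Figure D1:**
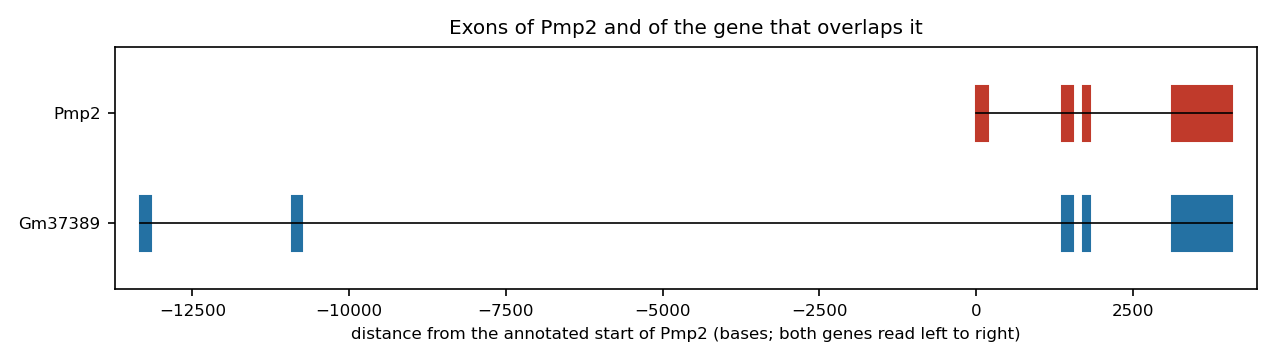
Exons (boxes) and introns (lines) of Pmp2 and Gm37389 as distance in bases from the annotated start of Pmp2, both genes drawn from left to right in the direction of transcription. Exons 2 to 4 of Pmp2 lie on exons of Gm37389, and only exon 1 of Pmp2 stands alone.

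The other 5 genes were each annotated without such a partner. Sox10 lies on chromosome 15 (79154908 to 79165240, minus strand, mm10), Pmp22 on chromosome 11 (63128982 to 63159547, plus strand), S100b on chromosome 10 (76253853 to 76261159, plus strand), Prx on chromosome 7 (27499324 to 27520214, plus strand) and Mbp on chromosome 18. Prx shares 300 exonic bases (5.38%) with the antisense gene Gm15541, which had 6 to 36 counts per library.

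Levels of different genes can be compared only per length, and for this the deposited FPKM (fragments per kilobase of transcript, scaled to sequencing depth) were used. Pmp22 was by far the most abundant of the 6 genes in every group. In the Sham mice its mean was 82.6 FPKM ± 2.77 (SD, n = 4), against 3.97 ± 0.962 for S100b, 3.95 ± 0.679 for Prx, 1.05 ± 0.144 for Mbp and 0.730 ± 0.239 for Sox10. The ranges of S100b and Prx overlapped there, as did those of Mbp and Sox10, so the order within each of these pairs was not resolved. Pmp22 was first described as a growth-arrest gene and is expressed by many cell types besides Schwann cells. In the HPi-Lp mice the order changed: Pmp22 (73.8 FPKM ± 21.2) was followed by S100b (9.78 ± 1.47), Mbp (7.65 ± 7.91), Sox10 (5.30 ± 5.49) and Prx (3.67 ± 3.02). The ranges of the last 3 overlapped. Without HPi-Lp replicate 1 the order of the means was the same, but those of Mbp, Sox10 and Prx fell to 3.71 ± 0.967, 2.66 ± 1.84 and 2.16 ± 0.0209 FPKM (SD, n = 3), and that of Pmp22 to 63.8 ± 9.19.

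The label of the gene group was checked with Sox10, Cdh19 and Erbb3, genes typical of the Schwann cell lineage. Sox10 is itself a member, so only Cdh19 and Erbb3 come from outside the group. The means of Sox10, Cdh19 and Erbb3 were 2.23, 2.05 and 2.11 CPM in the Sham mice. In the HPi-Lp mice they were 16.1, 20.3 and 12.5 CPM (8.24, 8.79 and 6.27 CPM without HPi-Lp replicate 1). Egr2 and Ngfr, which belong to the same marker list, are shared with other cell types and are described below. In whole aorta, a change in the number of Schwann cells cannot be told apart from a change in RNA per cell.

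Sox10, Mbp and S100b were upregulated in the aortas of all 3 groups of 5/6 Nx mice compared with Sham, whereas Pmp22 and Prx were not called in either direction. The threshold for a call was a difference of at least 2-fold with an adjusted p of at most 0.05 (edgeR's quasi-likelihood test, Benjamini-Hochberg over all genes). The 3 comparisons share the Sham libraries, so they are not independent of each other. In the HPi-Lp mice 3 of the 5 genes tested were higher, where 15.0% of the 16513 genes tested were called higher. The same counts were 3 of 5 in the HPi-Hp mice, against 9.41% of 15882 genes, and 3 of 5 in the LPi-Lp mice, against 8.79% of 16071 genes. No member was called lower in these comparisons by edgeR or by DESeq2, where edgeR called 7.18%, 2.75% and 2.08% of all genes lower. Pmp22 was the only member with an unadjusted p under 0.05 in that direction.

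Sox10 was lowest in the Sham mice, with 2.68, 1.39, 2.99 and 1.86 CPM in replicates 1 to 4. The HPi-Lp mice held 39.9, 3.60, 6.63 and 14.5 CPM. The HPi-Hp mice held 4.49, 10.2, 7.10 and 9.07 CPM, and the LPi-Lp mice 5.24, 3.36, 3.77 and 8.62 CPM. All 12 libraries of 5/6 Nx mice were above the highest Sham library, while the 3 groups of 5/6 Nx mice overlapped each other. The log2 fold change against Sham was 2.82 (SE 0.698, edgeR adjusted p = 0.00922) in the HPi-Lp mice, 1.78 (SE 0.332, edgeR adjusted p = 0.00956) in the HPi-Hp mice and 1.26 (SE 0.357, edgeR adjusted p = 0.0248) in the LPi-Lp mice. Without HPi-Lp replicate 1 the first of these was 1.84 (edgeR adjusted p = 0.0118). The last was the weakest: it was no longer called without LPi-Lp replicate 4 (log2 fold change 0.90, edgeR adjusted p = 0.0537), Sham replicate 2 (1.08, adjusted p = 0.0720) or Sham replicate 4 (1.17, adjusted p = 0.0647), nor with all 16 libraries in one edgeR fit (1.24, adjusted p = 0.147).

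Mbp showed the clearest separation from Sham. Its levels were 7.36, 10.2, 9.54 and 8.41 CPM in the Sham mice and 162, 22.4, 35.3 and 37.4 CPM in the HPi-Lp mice. They were 27.2, 35.7, 42.2 and 29.8 CPM in the HPi-Hp mice and 40.7, 15.2, 20.4 and 23.9 CPM in the LPi-Lp mice. The lowest 5/6 Nx library lay above the highest Sham library, and replicate 1 of the HPi-Lp mice was more than 4 times the next library of its group. The log2 fold change against Sham was 2.83 (SE 0.590, edgeR adjusted p = 0.00386), 1.93 (SE 0.170, edgeR adjusted p = 0.00411) and 1.52 (SE 0.271, edgeR adjusted p = 0.00435) in the HPi-Lp, HPi-Hp and LPi-Lp mice. Each of these calls held with any single library left out, and the first fell to 1.80 (edgeR adjusted p = 0.000147) without HPi-Lp replicate 1. Mbp is also a myelin gene of oligodendrocytes, the glia of the brain and spinal cord. Of the defining genes of those cells, Olig2 had 0 counts in all 16 libraries, whereas Olig1 was at 0 to 0.114 CPM in the Sham libraries and 0 to 2.39 CPM in the 5/6 Nx libraries. The part of such cells in the level of Mbp was not tested.

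S100b rose by a similar amount in every group of 5/6 Nx mice. It was measured at 5.37, 4.92, 8.06 and 5.25 CPM in the Sham mice and at 13.5, 15.2, 12.5 and 17.5 CPM in the HPi-Lp mice. The HPi-Hp mice held 16.7, 16.9, 27.0 and 7.93 CPM, and the LPi-Lp mice 24.4, 8.85, 16.1 and 9.18 CPM. One library, HPi-Hp replicate 4, fell within the Sham range, and all others of 5/6 Nx mice lay above it. The log2 fold change against Sham was 1.27 (SE 0.203, edgeR adjusted p = 0.000899), 1.53 (SE 0.325, edgeR adjusted p = 0.0114) and 1.33 (SE 0.330, edgeR adjusted p = 0.0149). The S100b level of HPi-Lp replicate 1 was not set apart from its group, unlike those of Sox10 and Mbp. The call in the LPi-Lp mice was lost without LPi-Lp replicate 1 (log2 fold change 0.95) or Sham replicate 2 (edgeR adjusted p = 0.0508).

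Pmp22 was not called in any group, and its mean was lower in each group of 5/6 Nx mice than in Sham. The Sham mice held 198, 190, 190 and 201 CPM, a narrow range. The HPi-Lp mice held 241, 137, 145 and 176 CPM, the HPi-Hp mice 146, 131, 114 and 180 CPM, and the LPi-Lp mice 124, 153, 133 and 148 CPM. All 8 libraries of the last pair of groups lay below every Sham library. The log2 fold change was -0.46 (SE 0.102, edgeR adjusted p = 0.00904) in the LPi-Lp mice, which passed the p threshold but not the 2-fold threshold. It was -0.44 (SE 0.162, edgeR adjusted p = 0.0619) in the HPi-Hp mice and -0.19 (SE 0.180, edgeR adjusted p = 0.420) in the HPi-Lp mice, where leaving out replicate 1 gave -0.39 (edgeR adjusted p = 0.0238).

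Prx was measured at 26.4, 23.2, 17.5 and 21.1 CPM in the Sham mice. In the HPi-Lp mice replicate 1 stood at 45.2 CPM, and the other 3 libraries lay close together at 12.4, 12.2 and 12.1 CPM, all below the Sham range. The HPi-Hp mice held 20.3, 25.2, 17.5 and 32.2 CPM and the LPi-Lp mice 16.7, 8.14, 15.2 and 22.3 CPM. Whether Prx differed between the HPi-Lp mice and Sham therefore depended on a single library. The log2 fold change was -0.15 (SE 0.433, edgeR adjusted p = 0.809) with all 4 mice. It was -0.88 (edgeR adjusted p = 0.00174, under the 2-fold threshold) without replicate 1. The other values were 0.12 (SE 0.210, edgeR adjusted p = 0.684) in the HPi-Hp mice and -0.48 (SE 0.260, edgeR adjusted p = 0.184) in the LPi-Lp mice.

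**Figure D2:**
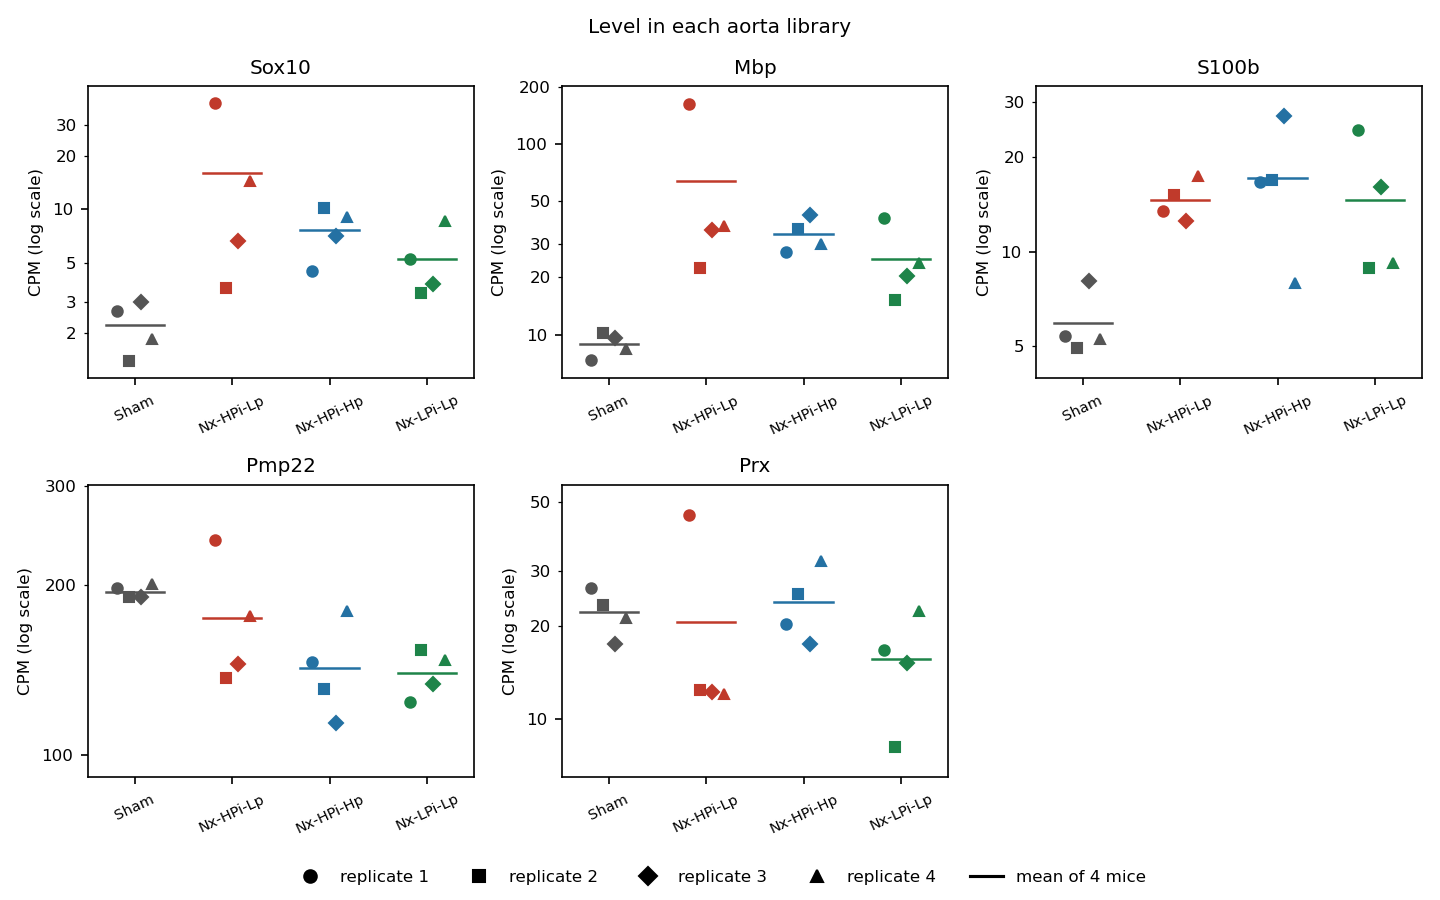
Level in CPM (log scale, a separate axis for each gene) of 5 Schwann cell and myelin genes in each of the 16 aorta libraries, with symbols for the replicates and a line at the mean of 4 mice. Sox10 and Mbp of the 5/6 Nx mice lie above all Sham libraries, Pmp22 and Prx do not, and HPi-Lp replicate 1 is the highest library for every gene but S100b.

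Next, the 5/6 Nx groups were compared with each other, which tests the diets within mice that had all been operated on. No member was called in any of these comparisons by edgeR. Against the HPi-Hp mice, which differ in dietary protein, the HPi-Lp mice had 5.01% of 16198 genes called higher and 3.11% called lower. Against the LPi-Lp mice, which differ in dietary phosphorus, they had 7.90% of 16253 genes called higher and 3.98% called lower. Between the HPi-Hp and LPi-Lp mice, which the study did not compare, edgeR called 0% of 15850 genes in each direction, with 1420 genes at an unadjusted p under 0.05, and DESeq2 called 75 genes. In the first and the last of these comparisons 0 of 5 members had an unadjusted p under 0.05 and DESeq2 called none.

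Sox10 and Mbp were higher in the mean of the HPi-Lp mice than in both other 5/6 Nx groups, but the groups overlapped. Against LPi-Lp, Sox10 differed by a log2 fold change of 1.59 (95% interval 0.07 to 3.12, edgeR adjusted p = 0.125) and that of Mbp was 1.34 (95% interval -0.01 to 2.69, edgeR adjusted p = 0.143). Sox10 was the only member with an unadjusted p under 0.05 in that comparison. These values depended on the tool and on 1 library. DESeq2 called Sox10 (adjusted p = 0.0338), and an edgeR fit of all 16 libraries called Sox10 (adjusted p = 0.0489) and Mbp (adjusted p = 0.0471). Without HPi-Lp replicate 1 the log2 fold changes were 0.63 (edgeR adjusted p = 0.410) for Sox10 and 0.33 (edgeR adjusted p = 0.512) for Mbp.

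Compared with the HPi-Hp mice, the log2 fold change in the HPi-Lp mice was 1.05 for Sox10 (95% interval -0.40 to 2.50, edgeR adjusted p = 0.301) and 0.92 for Mbp (95% interval -0.30 to 2.15, edgeR adjusted p = 0.283). Leaving out HPi-Lp replicate 1 brought them to 0.06 and -0.12. S100b differed little in either comparison, by -0.23 (95% interval -0.92 to 0.45) against the HPi-Hp mice and by -0.02 (95% interval -0.74 to 0.70) against the LPi-Lp mice.

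Pmp22 and Prx were not called between the diets. The log2 fold changes of Pmp22 were 0.27 (95% interval -0.25 to 0.79) and 0.31 (95% interval -0.11 to 0.74) in the HPi-Lp mice against the HPi-Hp and LPi-Lp mice. Those of Prx were -0.24 (95% interval -1.25 to 0.77) and 0.37 (95% interval -0.72 to 1.46), and without HPi-Lp replicate 1 the first was -0.9997 (edgeR adjusted p = 0.0299, just under the 2-fold threshold). Between the HPi-Hp and LPi-Lp mice the 5 log2 fold changes ran from 0.03 (Pmp22) to 0.61 (Prx).

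**Figure D3:**
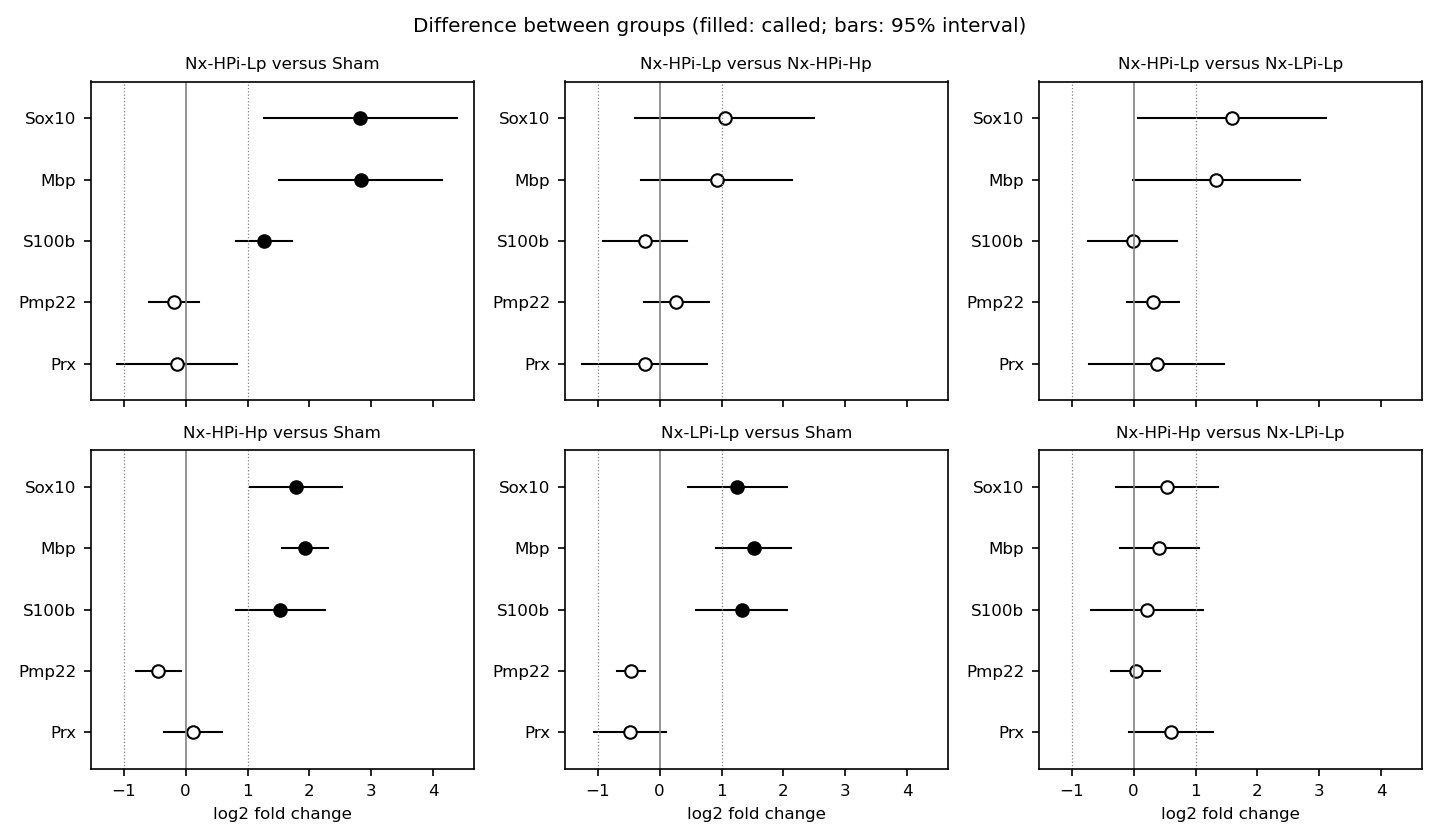
Log2 fold change of the 5 measured members in the 6 pairwise comparisons, with 95% intervals from edgeR's quasi-likelihood fit of the 8 libraries compared, filled points for called genes and dotted lines at a 2-fold difference. Sox10, Mbp and S100b are called in the 3 comparisons with Sham, and no member is called between the 5/6 Nx groups.

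Beside the members, 45 other Schwann cell and myelin genes in 5 lists were examined in the same fits. The lists were chosen with earlier results of these data known. Their counts therefore describe the listed genes and are no independent support for the members. In the HPi-Lp mice 22 of the 38 tested were higher than in Sham and 3 were lower, where 15.0% and 7.18% of all genes tested were called in these directions. The median log2 fold change was 1.67 against -0.003 over all genes tested. In the HPi-Hp mice 14 of 37 were higher and 1 was lower (9.41% and 2.75% of all genes), with a median of 0.40 against 0.02 over all genes. In the LPi-Lp mice 7 of 36 were higher and 1 was lower (8.79% and 2.08% of all genes), with a median of 0.19 against 0.02. The genes not tested had too few counts in these groups. Without HPi-Lp replicate 1 the first count was 17 higher and 5 lower, and without Sham replicate 2 the second was 8 higher and 1 lower. The third was 4 higher and 2 lower without LPi-Lp replicate 4, and 0 higher and 1 lower with all 16 libraries in one fit.

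Of the 11 genes of compact myelin and its junctions, 4 of 8 tested were higher and 1 was lower in the HPi-Lp mice than in Sham. In the HPi-Hp mice 5 of 9 were higher and 1 was lower, and in the LPi-Lp mice 3 of 8 were higher and 1 was lower. Of all genes tested, 15.0%, 9.41% and 8.79% were called higher in these groups, and 7.18%, 2.75% and 2.08% lower. Drp2, which encodes a partner of periaxin in the dystroglycan complex, was called higher in all 3 groups. It was measured at 0.588, 0.463, 0.650 and 0.609 CPM in the Sham mice and at 20.3, 1.66, 2.58 and 2.09 CPM in the HPi-Lp mice. The HPi-Hp mice held 0.812, 5.12, 2.97 and 2.85 CPM, and the LPi-Lp mice 2.56, 2.65, 0.740 and 2.98 CPM. All libraries of 5/6 Nx mice were above the Sham range, and HPi-Lp replicate 1 again stood far above its group. The log2 fold change against Sham was 3.48 (edgeR adjusted p = 0.00927), 2.32 (edgeR adjusted p = 0.0122) and 1.97 (edgeR adjusted p = 0.00765), and the first was 1.83 (edgeR adjusted p = 0.00383) without HPi-Lp replicate 1. Prx was called in none of these comparisons. With all 16 libraries in one edgeR fit, the call of Drp2 in the LPi-Lp mice was lost (adjusted p = 0.0893).

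Cldn19, a claudin of the myelin junctions, was higher in the HPi-Hp mice than in Sham (log2 fold change 2.95, edgeR adjusted p = 0.0202), a call that was lost without any one of Sham replicates 1, 2 and 3 or HPi-Hp replicate 2. Its levels were 0.0368, 0.253, 0.130 and 0.571 CPM in the Sham mice and 0.541, 4.03, 1.48 and 1.92 CPM in the HPi-Hp mice. It passed the count filter mainly through the HPi-Hp libraries, where it was high, and Sham lay near the floor. The call is therefore given as a description only. In the other comparisons with Sham Cldn19 did not pass the count filter, although the HPi-Lp libraries held 12.1, 0.348, 0.249 and 2.09 CPM.

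Not all genes of these lists rose. Gldn, which encodes gliomedin, the Schwann cell protein that gathers sodium channels at the node, was lower in the HPi-Lp mice than in Sham (log2 fold change -1.39, edgeR adjusted p = 0.00346) and than in the LPi-Lp mice (-1.35, edgeR adjusted p = 0.0215), the latter lost without LPi-Lp replicate 3 (edgeR adjusted p = 0.0516). Cd9, a tetraspanin found in myelin and in many other cells, was lower than in Sham in the HPi-Hp mice (-1.45, edgeR adjusted p = 0.0150) and in the LPi-Lp mice (-1.26, edgeR adjusted p = 0.00841). Of the 6 enzymes of myelin lipids, 1 of 5 tested was higher than in Sham in the HPi-Lp mice and 1 of 5 in the HPi-Hp mice. In the LPi-Lp mice 0 of 5 were called and 1 of them had an unadjusted p under 0.05. The shares of all genes called higher were 15.0%, 9.41% and 8.79%, so these small counts do not set the enzymes apart. Over the 5 lists together, DESeq2 called 8 genes higher and 1 lower in the LPi-Lp mice than in Sham, of 44 with a count. In that comparison it called 2109 of all 31290 genes with a count, 1712 of them higher.

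Among 8 transcription factors other than Sox10, 3 of 6 tested were higher in the HPi-Lp mice than in Sham and 1 of 6 in the HPi-Hp mice. In the LPi-Lp mice edgeR called 0 of 6, with 2 at an unadjusted p under 0.05. Over all genes tested, 15.0%, 9.41% and 8.79% were called higher in the HPi-Lp, HPi-Hp and LPi-Lp mice. Egr2, which drives the myelin genes together with Sox10, was higher in the HPi-Lp mice than in each other group, by a log2 fold change of 1.59 (edgeR adjusted p = 0.0162) against the HPi-Hp mice and 2.38 (edgeR adjusted p = 0.00312) against the LPi-Lp mice, without overlap of the groups. Unlike Sox10, these differences did not rest on replicate 1: they were 1.75 and 2.54 without it. Egr2 is also an early response gene in other cells. Zeb2, a transcription factor of Schwann cell maturation that other cell types share, was higher than in the HPi-Hp mice by 1.01 (edgeR adjusted p = 0.0131) and crossed the 2-fold threshold in some settings only: it was 0.97, 0.91, 0.94 and 0.91 without HPi-Lp replicate 2 or 4 or HPi-Hp replicate 2 or 4.

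The signalling list gave 7 higher and 1 lower of 9 tested in the HPi-Lp mice against Sham, where 15.0% and 7.18% of all genes were called. It gave 3 higher of 8 in the HPi-Hp mice (9.41% of all genes) and 2 higher of 8 in the LPi-Lp mice (8.79% of all genes). Ngfr, which encodes the low-affinity neurotrophin receptor p75, had the largest increase among those of the 45 genes that were tested in each group of 5/6 Nx mice, with log2 fold changes of 7.52 (edgeR adjusted p = 0.00135), 4.25 (edgeR adjusted p = 0.00956) and 3.03 (edgeR adjusted p = 0.0248) in the HPi-Lp, HPi-Hp and LPi-Lp mice. The last call was lost without any one of 5 libraries: Sham replicates 1, 2 and 3 and LPi-Lp replicates 3 and 4. Levels of Ngfr were 0.772, 0.547, 0.347 and 1.10 CPM in the Sham mice and 257, 4.52, 29.3 and 237 CPM in the HPi-Lp mice. The HPi-Hp mice held 4.98, 19.5, 2.03 and 26.9 CPM, and the LPi-Lp mice 1.47, 0.517, 7.40 and 13.2 CPM. Replicates 1 and 4 stood far above the other HPi-Lp libraries, and LPi-Lp replicate 2 lay within the Sham range. Ngfr is made by sympathetic neurons as well as by Schwann cells. It was also higher in the HPi-Lp than in the LPi-Lp mice (4.51, edgeR adjusted p = 0.0372), a call lost without HPi-Lp replicate 1 (3.99, edgeR adjusted p = 0.0636), HPi-Lp replicate 4 or any one of LPi-Lp replicates 1, 2 and 3. Artn, which encodes the ligand artemin, was lower in the HPi-Lp mice than in Sham (-1.49, edgeR adjusted p = 0.0120) and than in the HPi-Hp mice (-1.53, edgeR adjusted p = 0.0475), the latter lost when any one of 7 of the 8 libraries was left out.

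Of the 10 genes of precursor and non-myelinating Schwann cells, all were tested in the HPi-Lp mice, where 7 were higher than in Sham and 1 was lower. In the HPi-Hp mice 4 of 9 tested were higher, and in the LPi-Lp mice 2 of 9. The shares of all genes called higher were 15.0%, 9.41% and 8.79% in these groups, and 7.18% were called lower in the HPi-Lp mice. Col28a1, a collagen of peripheral nerve, was higher in the HPi-Lp mice than in Sham by 3.80 on the log2 scale (edgeR adjusted p = 0.00144). Against the LPi-Lp mice it was higher by 2.58 (edgeR adjusted p = 0.0163). Without HPi-Lp replicate 1 these values were 3.16 and 1.97 (edgeR adjusted p = 0.00156 and 0.0245). Ncam1, a cell adhesion gene that muscle and neurons also express, was lower in the HPi-Lp mice than in Sham (-1.18, edgeR adjusted p = 0.000223), the HPi-Hp mice (-1.67, edgeR adjusted p = 0.00498) and the LPi-Lp mice (-1.38, edgeR adjusted p = 0.00274).

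The lists were also compared between the 5/6 Nx groups. The HPi-Lp mice had 2 of 39 genes higher and 2 lower than the HPi-Hp mice, where 5.01% and 3.11% of all genes were called, and 6 of 40 higher and 2 lower than the LPi-Lp mice, where 7.90% and 3.98% were. The first of these counts was 6 higher without HPi-Lp replicate 2, and 1 higher without HPi-Lp replicate 4 or HPi-Hp replicate 2. The second was 12 higher without HPi-Lp replicate 2, and 3 higher without any one of HPi-Lp replicates 1 and 4 and LPi-Lp replicates 1, 2 and 3. The medians were 1.08 and 1.19 with all libraries and 0.06 and 0.28 without replicate 1. Between the HPi-Hp and LPi-Lp mice edgeR called 0 of 39, with 4 at an unadjusted p under 0.05, and DESeq2 called 0.

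**Figure D4:**
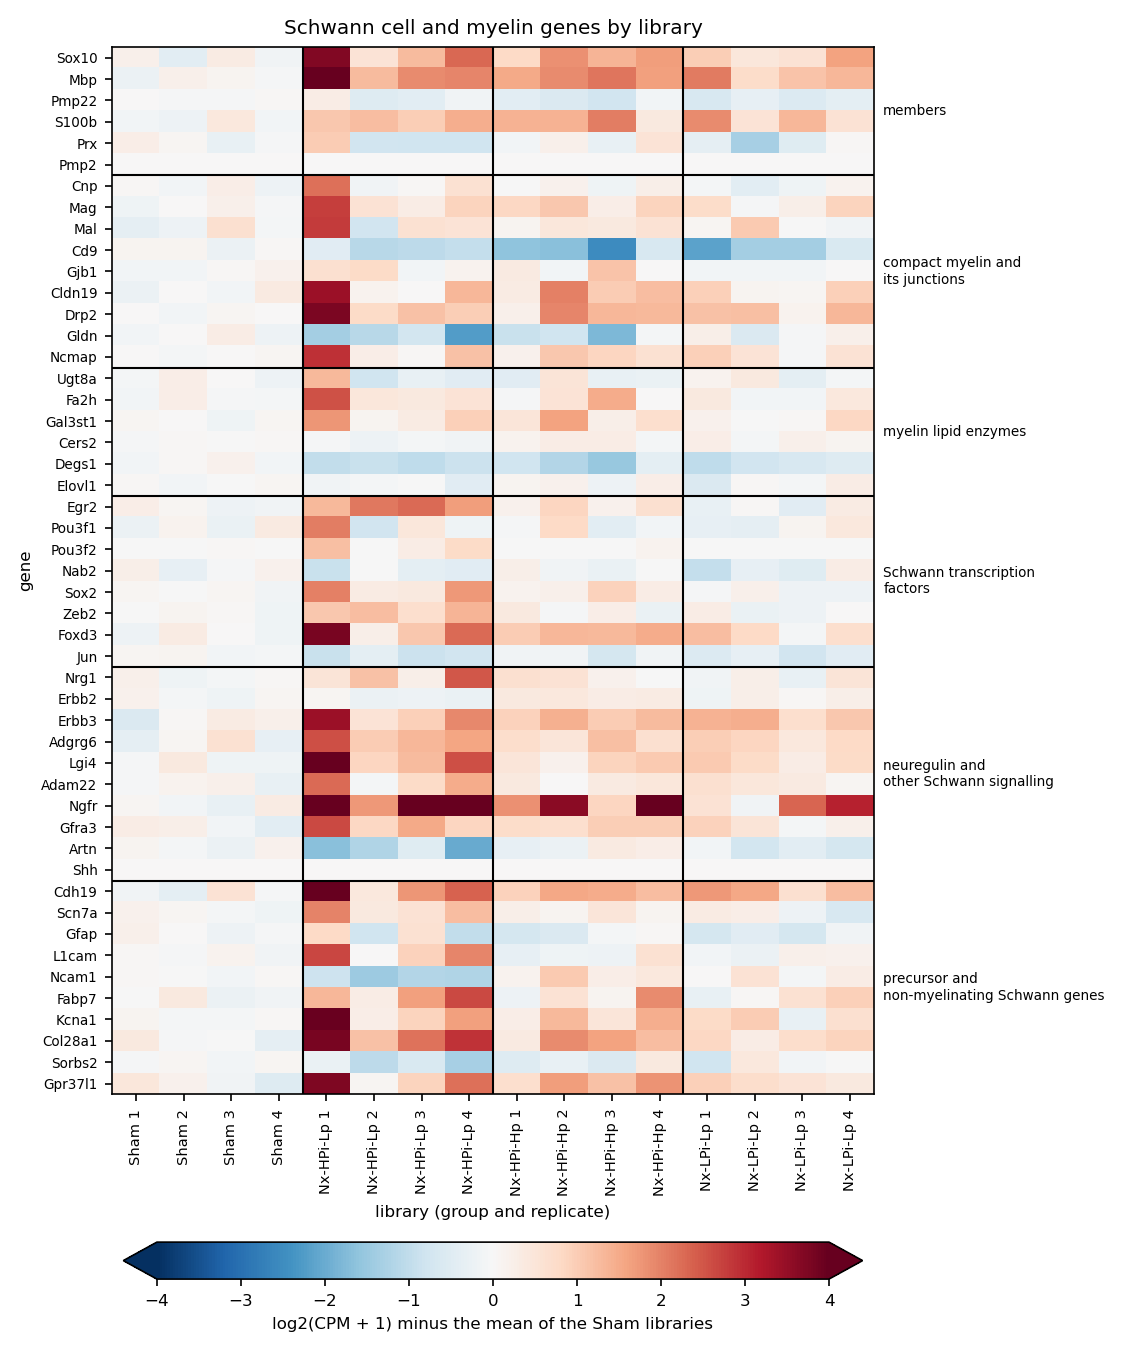
Level of the 6 members and of 43 of the 45 other Schwann cell and myelin genes in each library, as log2(CPM + 1) minus the mean of the 4 Sham libraries, with colors saturating at 4 in either direction and lines between gene lists and groups. Sox10, Mbp, Drp2, Cdh19 and Ngfr are above the Sham mean in HPi-Lp replicate 1, while Gldn, Artn and Ncam1 are below it in the mean of that group.

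The members fell into separate patterns across the 16 libraries. Pearson correlations of log2(CPM + 1) are given as descriptions, without a test, because the libraries fall into groups and share their scaling. Sox10 and Mbp ran together (r = 0.90, and 0.79 after the mean of each group was removed). Sox10 and S100b were linked over all libraries (r = 0.47) but not within groups (-0.05), and Pmp22 ran against S100b (r = -0.70, and -0.58 within groups). Prx followed Sox10 within groups (0.75) more than over all libraries (0.38). Several of these values rested on HPi-Lp replicate 1. Without it, r within groups fell to 0.46 for Sox10 and Mbp (0.82 over all libraries) and to 0.41 for Sox10 and Prx. That of Mbp and Pmp22 over all libraries went from -0.13 to -0.755, while Pmp22 and S100b stayed opposed (-0.87, and -0.74 within groups). For Mbp and S100b, r rose from 0.68 to 0.85 over all libraries and from 0.26 to 0.59 within groups. Without that library, Mbp thus ran at least as closely with S100b as with Sox10.

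Among the 17443 genes compared over all 16 libraries, HPi-Lp replicate 1 included, those most like Sox10 included Eno2 (r = 0.96), which encodes the neuronal enolase, and Dusp26 (0.95), a phosphatase. Those most like Mbp included Unc5a (0.94), a netrin receptor, and Cadm4 (0.92), an adhesion protein of Schwann cells. The 3 most like S100b were Bscl2 (0.95), which encodes seipin of lipid droplets, Apoc1 (0.95), an apolipoprotein, and Dgat1 (0.95), an enzyme of triglyceride synthesis. Pmp22 was most like Magee1 (0.94), Ids (0.93), a lysosomal sulfatase, and Mfsd6 (0.91). Prx was most like Cep97 (0.86), a centrosomal protein, Gm45515 (0.85) and Ido1 (0.81), an enzyme of tryptophan breakdown.

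Markers of neurons and adipocytes, which lie around the aorta, had a higher mean sum in each group of 5/6 Nx mice than in Sham. The means of Sox10, Mbp and S100b were also higher in each of these groups, whereas that of Pmp22 was lower. The summed level of 12 sympathetic neuron markers was 27.7 to 40.4 CPM in the Sham libraries, 72.6 to 1963 CPM in the HPi-Lp libraries, 31.9 to 277 CPM in the HPi-Hp libraries and 21.3 to 202 CPM in the LPi-Lp libraries. In the Sham mice 3 of the 12 had a mean of at least 1 CPM, and in each group of 5/6 Nx mice all 12 did. The 2 libraries with the highest sums, HPi-Lp replicates 1 (1963 CPM) and 4 (1513 CPM), were also those with the most Sox10. The sum did not order the other libraries in the same way: LPi-Lp replicate 1 and HPi-Hp replicate 3 had sums of 21.3 and 31.9 CPM, within or below the Sham range, with Sox10 at 5.24 and 7.10 CPM and Mbp at 40.7 and 42.2 CPM, all above Sham.

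The summed level of 8 adipocyte markers was 667 to 1728 CPM in the Sham libraries, 6622 to 12903 CPM in the HPi-Lp libraries, 1657 to 13903 CPM in the HPi-Hp libraries and 3568 to 9678 CPM in the LPi-Lp libraries, and all 8 markers had a mean of at least 1 CPM in every group. S100b is expressed by adipocytes as well as by glia. The library with the lowest S100b among the 5/6 Nx mice, HPi-Hp replicate 4 (7.93 CPM), also had the lowest adipocyte sum among them (1657 CPM), and the library with the highest S100b, HPi-Hp replicate 3 (27.0 CPM), had the highest sum (13903 CPM). HPi-Hp replicate 3 and LPi-Lp replicate 1 had the highest adipocyte sums of their groups (13903 and 9678 CPM). They also held the most Mbp of their groups (42.2 and 40.7 CPM). In the Sham and HPi-Lp mice the library with the most Mbp was not the one with the highest adipocyte sum. The part of neurons, adipocytes and the lower smooth muscle markers in the levels of the members was not tested.

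**Figure D5:**
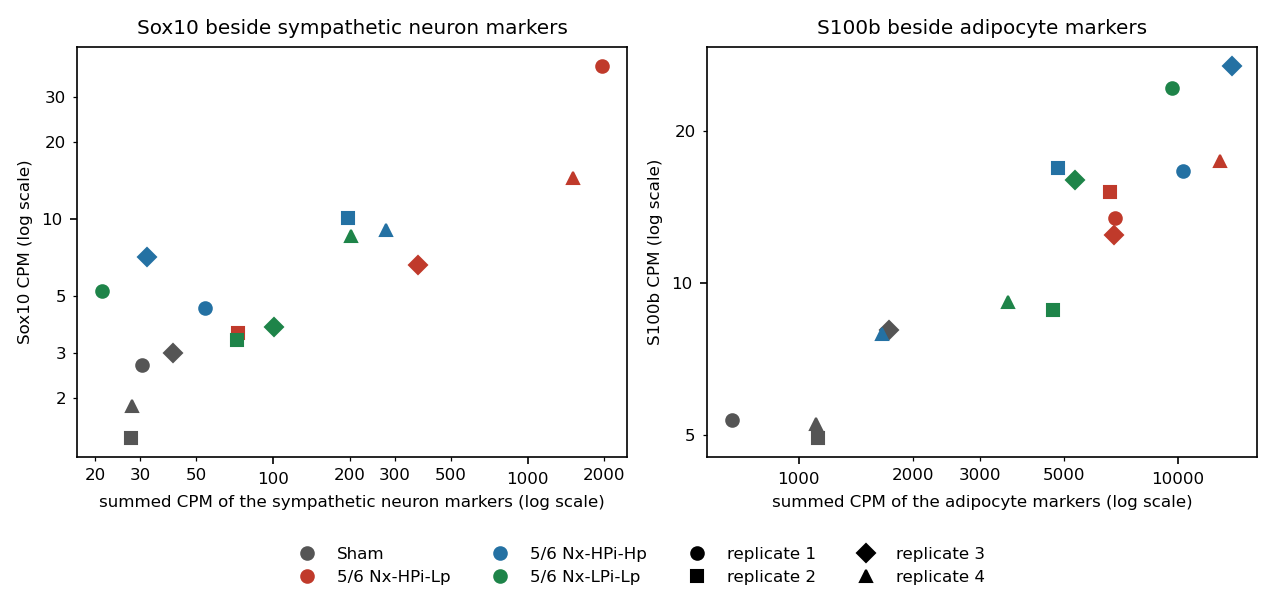
Sox10 against the summed CPM of 12 sympathetic neuron markers and S100b against the summed CPM of 8 adipocyte markers, 1 point per library, both axes on a log scale, with colors for groups and symbols for replicates. The 2 libraries with the highest neuron sums have the highest Sox10, and the 4 Sham libraries and HPi-Hp replicate 4 have both the lowest adipocyte sums and the lowest S100b.

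Promoter sequences are shown for the 3 members with an entry in the RefSeq promoter table used (GRCm38.p6), since S100b rose with Sox10 and Mbp over Sham while Prx and Pmp22 did not. Each is the 250 bases before the first transcript start, 5′ to 3′ on the plus strand (S100b chr10:76253586-76253835, Prx chr7:27499074-27499323, Pmp22 chr11:63128732-63128981), with CCAAT letters on either strand in capitals.
S100b: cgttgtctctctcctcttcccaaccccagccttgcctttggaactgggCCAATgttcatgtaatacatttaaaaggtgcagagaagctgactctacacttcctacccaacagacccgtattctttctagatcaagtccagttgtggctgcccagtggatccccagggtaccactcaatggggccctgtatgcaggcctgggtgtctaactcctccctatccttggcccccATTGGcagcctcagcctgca
Prx: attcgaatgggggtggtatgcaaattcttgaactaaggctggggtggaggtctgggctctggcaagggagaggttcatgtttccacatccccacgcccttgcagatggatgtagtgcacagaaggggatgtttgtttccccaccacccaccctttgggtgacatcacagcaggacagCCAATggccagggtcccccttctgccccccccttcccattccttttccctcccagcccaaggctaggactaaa
Pmp22: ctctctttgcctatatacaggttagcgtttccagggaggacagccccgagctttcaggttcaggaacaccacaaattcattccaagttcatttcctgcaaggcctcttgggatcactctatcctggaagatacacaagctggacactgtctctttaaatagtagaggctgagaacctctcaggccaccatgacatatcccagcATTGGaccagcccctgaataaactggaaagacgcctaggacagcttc

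The CCAAT letters were found at -202 and -20 from the start of S100b, at -73 from that of Prx and at -47 from that of Pmp22, and in 33.8% of 32851 promoter windows of the same length. Short letters bound by SOX and EGR factors were searched on both strands and occurred in none of these windows. They were ACAAAG for SOX, held by 16.5% of all windows, the related SOX letters ACAATG, held by 10.7%, and the EGR letters GTGGGCG, held by 7.02%. A match or its absence in such a window describes the letters and says nothing about binding. Pmp22 has 5 annotated transcript starts, and the counts of a gene sum over its starts, so a switch between them would not be visible here.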

How the data were processed

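RNA from 16 mouse aortas was measured as 1 library per mouse. Reads were filtered, mapped with HISAT2 to the mm10 build and assigned to genes by featureCounts (version 1.5.0-p3, from the submitters' processing notes). The deposited counts are whole numbers without normalization for 54532 genes, and the deposited FPKM are already scaled between libraries by the authors. Strand settings and the treatment of reads that match several genes are not given in the sources used here.

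Groups follow the deposited labels. Each pair of groups was fitted on its 8 libraries in R 4.3.3 with edgeR 4.0.16 (filterByExpr, TMM, quasi-likelihood F test), and p was adjusted over all genes by Benjamini-Hochberg. SE is the absolute log2 fold change divided by the square root of F. CPM are after TMM of the 16 libraries together, and log2(CPM + 1) was used for correlations. Errors are between mice, and floors of 3 counts cover counting error only.

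The members and the gene lists were chosen with earlier results of these data known. The naming rule took all members, per comparison up to 3 called genes of the other lists with the largest change in each direction, and the 3 genes most like each member. The values of 2 genes that the rule names are not reported here, and counts over the lists include them. Other settings tried were scaling by RLE or by total counts, DESeq2 1.42.0, the count filter dropped or set to 10 counts per library, a fit of all 16 libraries, a block on replicate number, calls without the fold threshold, limma 3.58.1 on log2(FPKM + 1) and log2(FPKM + 0.1) for a mean FPKM of at least 0.5 and unfiltered, mitochondrially encoded genes removed, and each library left out. Counts of the other lists' genes under these settings, and means and correlations without HPi-Lp replicate 1, were additions made after seeing the data. The fits were tested on simulated data. Gene positions of the 6 members are equal in the files and in GENCODE release M21 (mm10). Figures were drawn with matplotlib 3.10.9.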

Additional observations from a re-analysis of the deposited data

Results flagged for a closer look

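In groups of 4 libraries, the highest or lowest value was compared with its nearest neighbor relative to the range of the group (Dixon's test, 20 sets of 4 libraries over 5 genes and 4 groups). Chance marks about 1 in 20 such sets, and 3 were marked. Mbp in HPi-Lp replicate 1 was 162 CPM, against 37.4 CPM in the next library of the group. Prx in the same library was 45.2 CPM, against 12.4 CPM in the next, so both marked values in that group came from 1 mouse. S100b in Sham replicate 3 was 8.06 CPM, against 5.37 CPM in the next. That library also had the highest adipocyte marker sum of the Sham mice (1728 CPM).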

How the results depend on the processing

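The count of called members against Sham was 3 in each group. In the LPi-Lp mice it was 1 with limma on log2(FPKM + 1), 0 with the same and no FPKM filter, and 1 to 3 with a library left out (lowest without Sham replicate 2). For HPi-Lp against LPi-Lp mice, where edgeR called 0, it was 2 with all 16 libraries in one fit and 1 with DESeq2. The causes were not tested.

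Replicate numbers were not treated as pairs in the main fits. The correlations of same-numbered deviations ran from -0.27 to 0.54, the highest for replicate 4 of the HPi-Hp and LPi-Lp mice. With so few mice these values cannot decide whether the numbers pair them. A replicate block changed no call of a member and moved the calls among the 45 other genes from 25 to 17 for HPi-Lp against Sham and from 4 to 1 for HPi-Lp against HPi-Hp. With it, Egr2 (adjusted p = 0.0624, HPi-Lp against HPi-Hp) was no longer called in edgeR.

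Those 45 genes gave 25 calls for HPi-Lp against Sham and 15, 10 and 6 with limma (log2(FPKM + 0.1), log2(FPKM + 1), and the latter unfiltered). For HPi-Hp against Sham, 15 calls became 9, 4 and 3 with limma and 8 with all 16 libraries. For LPi-Lp against Sham, 8 calls became 4, 2 and 2 with limma, 1 with all 16 libraries and 13 without a fold threshold. For HPi-Lp, 4 calls against HPi-Hp became 10 with all 16 libraries and 7 with DESeq2, and 8 against LPi-Lp became 17 and 18. With limma in the order above they became 3, 2 and 1, and 5, 3 and 2.

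Over all genes, 3666, 1932, 1748, 1315 and 1931 calls (the 3 comparisons with Sham in the order HPi-Lp, HPi-Hp, LPi-Lp, then HPi-Lp against HPi-Hp and LPi-Lp) became 2057, 878, 870, 783 and 1068 with limma on log2(FPKM + 1). HPi-Hp against Sham gave 1091 without Sham replicate 2 and 3161 without HPi-Hp replicate 4. HPi-Lp against HPi-Hp gave 638 without HPi-Lp replicate 4, 682 without HPi-Hp replicate 2, 371 with the block and 2098 with DESeq2, and HPi-Lp against LPi-Lp gave 1278 without HPi-Lp replicate 4.

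All reversed signs belonged to genes that were not called. Prx for HPi-Hp against Sham was -0.075 (log2) with total-count scaling. S100b for HPi-Lp against LPi-Lp was 0.00402 with all 16 libraries, 0.11 with limma on log2(FPKM + 0.1), 0.088 on log2(FPKM + 1) with or without a filter, 0.046 without mitochondrially encoded genes, 0.11 with the replicate block and 0.062 with total-count scaling. With single libraries left out, the log2 fold changes that changed sign ran from -0.12 to 1.21 for Mbp and -0.47 to 0.048 for S100b (HPi-Lp against HPi-Hp), -0.36 to 0.63 for Prx and -0.22 to 0.34 for S100b (HPi-Lp against LPi-Lp), -0.88 to 0.049 for Prx (HPi-Lp against Sham), -0.080 to 0.24 for Prx (HPi-Hp against Sham), and -0.11 to 0.14 for Pmp22 and -0.082 to 0.59 for S100b (HPi-Hp against LPi-Lp). Unfiltered limma also lost Sox10 in HPi-Lp (adjusted p = 0.0983) and S100b in HPi-Hp (adjusted p = 0.0527) against Sham. An added pseudocount lowers the fold of genes with few FPKM.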

Other observations

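Other cell types that express some of these genes were read out with their own markers. Melanocytes also derive from cells that express Sox10. The 6 melanocyte markers summed to 18.3 to 22.1 CPM in the Sham libraries and 15.8 to 18.0 CPM in the HPi-Lp libraries. The sums were 12.9 to 16.2 CPM in the HPi-Hp libraries and 13.4 to 21.6 CPM in the LPi-Lp libraries. Most of each sum was Mitf, at 16.3 to 19.2 CPM in the Sham libraries. Only 2 of the 6 had a mean of at least 1 CPM in the Sham, HPi-Lp and HPi-Hp mice, and 3 in the LPi-Lp mice. Chondrocytes express S100b, and 6 chondrocyte markers summed to 35.7 to 56.2 CPM, 42.0 to 95.7 CPM, 53.6 to 86.0 CPM and 39.7 to 80.7 CPM in the same order. The 6 oligodendrocyte markers include Mbp, the most abundant of them in every library, and summed to 7.43 to 10.4 CPM in the Sham libraries and 17.7 to 162 CPM in the 5/6 Nx libraries.

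Fibroblast markers (7 genes) summed to 4462 to 6153 CPM in the Sham libraries and 5542 to 20822 CPM in the HPi-Lp libraries, and to 2957 to 5948 CPM and 2745 to 3341 CPM in the HPi-Hp and LPi-Lp libraries. Endothelial markers (8 genes) ranged from 793 to 1272 CPM over all 16 libraries. Thymocyte markers (6 genes) summed to 11.8 to 78.4 CPM in the Sham libraries and 1.28 to 30.7 CPM in the 5/6 Nx libraries. Skeletal muscle markers (5 genes) summed to 8.83 to 70.1 CPM in the Sham libraries and 5.29 to 392 CPM in the 5/6 Nx libraries.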
